A study of Arabidopsis thaliana with 12 samples.

Results

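The chloroplast genome of Arabidopsis thaliana was described through the 133 loci whose identifiers carry the prefix of that genome, out of 33602 loci counted in whole seedlings. The members were taken by identifier alone, although earlier results of these data were known when this part was chosen. Of the 133 loci, 34 had 0 counts in every library, 19 were counted but stayed below the low-count filter, and 80 were tested. Together they held 1210888 counts over 12 libraries, with 3 libraries for each of 4 genotypes. The abo4-1 line is mutated in POL2A, which encodes the catalytic subunit of DNA polymerase epsilon, and the series text calls it a knock-out. DPB2oe1.11.5 and DPB2oe12.1.5 overexpress DPB2, a regulatory subunit of the same nuclear replication enzyme, and each is 1 transgenic line whose promoter is not given in the sources used here. Titles of the DPB2oe1.11.5 libraries end the line name in another digit, and the genotype label was followed. Col-0 is the wild type and the labelled ecotype of all 4 groups. All seedlings were untreated, were labelled with growth stage 1.02, and were grown on 0.5x MS with 16 h of light a day, at 65% humidity and 20 °C. The study asks what changes in the transcriptome when DNA polymerase epsilon is deficient, and the comparisons below ask what it means for transcripts of an organelle that this enzyme is not known to replicate. Nothing in the labels says that replicates came from separate cultures or harvests, so p-values measure only the spread between these libraries.

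The chloroplast genome is a small circular molecule that keeps genes for photosynthesis and for its own gene expression. Its photosynthesis genes encode Rubisco's large subunit (rbcL), subunits of both photosystems (psa and psb genes), the cytochrome b6f complex (pet), the ATP synthase (atp) and the NDH complex (ndh). Other genes encode ribosomal proteins, ribosomal and transfer RNAs and the core subunits of the plastid-encoded RNA polymerase (rpo). That polymerase, which works with nuclear-encoded sigma factors, transcribes most photosynthesis genes, while a phage-type polymerase encoded in the nucleus has a larger part in transcribing housekeeping genes such as accD, clpP and rpoB. Many chloroplast genes are transcribed together in long precursors, and chloroplast mRNAs generally lack the long poly(A) tails of nuclear mRNAs. The libraries were selected for messenger RNA before sequencing, so the chloroplast reads are the part that passed that selection and not a measure of all chloroplast RNA.

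Counted reads ranged from 10902547 to 29456111 per library, of which 0.225% to 1.51% lay on chloroplast loci. In CPM (counts per 1000000 counted reads, scaled by the trimmed mean of M-values, TMM), DPB2 measured 118, 106 and 116 in the DPB2oe1.11.5 libraries and 117, 110 and 117 in those of DPB2oe12.1.5, against 2.79, 1.76 and 4.14 CPM in Col-0. POL2A measured 26.4, 25.5 and 24.1 CPM in abo4-1, against 17.3, 16.2 and 15.7 CPM in Col-0, so the transcript count does not show a loss. Shoot markers (LHCB5, LHCA1, GAPA and RCA) summed to 21782 to 32006 CPM in every library and root markers to 1603 to 2921 CPM, and flower markers stayed at or below 1.93 CPM. Seed markers summed to 17.7 CPM in replicate 1 and 15.1 CPM in replicate 2 of DPB2oe12.1.5, and to 0.546 to 4.21 CPM in the other 10 libraries. LHY, a circadian clock gene with a morning peak, exceeded 100 CPM in DPB2oe1.11.5 replicate 2, DPB2oe12.1.5 replicates 1 and 2 and abo4-1 replicate 2. Because whole seedlings were sampled, fewer green cells and less chloroplast RNA per cell cannot be told apart.

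The counted part of the genome was its unique part. Gene names came from the TAIR10.1 chloroplast annotation of RefSeq, which does not list these identifiers. Loci were therefore matched by exact spliced length. This named 63 loci by a length found once on both sides and 45 more by a length found once between such anchors, and 25 stayed without a name. The chloroplast genome of 154478 bases holds an inverted repeat at 84171 to 110434 and 128215 to 154478, and the copies of 26264 bases are identical. Of 20 matched loci that lie over 99% inside the repeat, 19 had 0 counts in all 12 libraries, and the 20 together had 2 counts. All 7 loci that were matched to ribosomal RNA genes and both copies of ycf2 were among those at 0. Per the file headers, reads with equally good alignments at more than 1 place were removed, and 14 of the 25 unnamed loci were at 0 as well. Of the 85 matched loci that lie fully outside the repeat, only trnY (ATCG00240, a tyrosine transfer RNA, named here because it stood alone) had no count, which allows up to 3 counts in a library. Genes that reach into the repeat with part of their length keep counts from the rest: 40.5% of rps19, 19.2% of ycf1 (ATCG01130) and 1.65% of ndhF lie inside it, so their levels per length are underestimates.

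rbcL and psbA, which encodes the D1 reaction centre protein of photosystem II, were the most abundant chloroplast transcripts. rbcL (ATCG00490, chloroplast position 54958 to 56397, plus strand, 1 exon) averaged 39.9% of all chloroplast counts over the 12 libraries. psbA (ATCG00020, 383 to 1444, minus strand, 1 exon) averaged 15.5%. The next by share were atpB (4.35%), rpl16 (4.06%), psaB (3.83%), psaA (3.63%), psbC (3.55%), atpE (3.49%), psbB (1.71%) and psbD (1.55%). These 10 loci held 70.1% to 89.7% of the chloroplast counts of a library. The means of atpB and atpE were raised by Col-0 replicate 1, where they took 21.7% and 24.2%. In the other libraries atpB took 1.67% to 6.45% and atpE 0.711% to 3.66%. Their ranks therefore hold for the mean over the 12 libraries only. Corrected for length, as reads per kb per 1000000 chloroplast counts (median of 12 libraries), the order changed. rbcL stayed first at 296206 and psbA followed at 144031, but rpl16, a protein of the large ribosomal subunit encoded in a cluster of ribosomal protein genes, came next at 84248. atpE, the epsilon subunit of the ATP synthase, reached 35124, psbC, a core antenna protein of photosystem II, 25696, rpl14 24683 and atpH 24649 on the same scale. The small photosystem proteins psbE and psaJ had 22823 and 22704, and the large photosystem I proteins psaB and psaA had 17561 and 16444. Subunits of the plastid RNA polymerase were far lower per length, at 4431 for rpoA, 1140 for rpoB, 938 for rpoC1 and 546 for rpoC2, as were accD at 622 and ndhF at 411.

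Neighbouring genes shared bases, and 3 pairs of tested loci did so on the same strand. The following windows (RefSeq, TAIR10.1, chloroplast, 5′ to 3′ on the coding strand) are shown because the bases in capitals belong to both genes of a pair, so that reads there cannot be assigned to either gene by sequence. The psbD/psbC window runs from 33708 to 33784 on the plus strand with 53 shared bases, and the atpE/atpB window from 52632 to 52691 on the minus strand with 4.
psbD/psbC: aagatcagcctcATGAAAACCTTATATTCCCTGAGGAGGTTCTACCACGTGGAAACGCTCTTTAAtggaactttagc
atpE/atpB: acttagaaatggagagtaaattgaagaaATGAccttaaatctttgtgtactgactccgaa
The psbC reading frame starts inside psbD (the D2 reaction centre protein), and the atpE frame starts inside the last bases of atpB, the beta subunit. The kit was stranded per the labels, but whether counting used the strand is not given in the sources used here. Counts of psbD and psbC, of atpB and atpE, and of rps3 and rpl22 are therefore not fully separate, and the same holds for reads from shared precursors.

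Runs of A inside a coding sequence were listed because messenger RNA was selected and such a run is the closest feature in these genes to a poly(A) tail. Over the 65 tested and named protein-coding loci the longest run ranged from 2 to 14 bases with a median of 5, and 6 loci held a run of 10 or more: rpoA, accD, rpoC2, ycf1, rpoB and atpB. The windows below (RefSeq, TAIR10.1, chloroplast, coding strand, longest run in capitals) contrast accD and rpoA, which hold long runs, with the abundant rbcL and psbA, which do not.
accD: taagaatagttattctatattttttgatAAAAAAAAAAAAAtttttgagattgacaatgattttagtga
rpoA: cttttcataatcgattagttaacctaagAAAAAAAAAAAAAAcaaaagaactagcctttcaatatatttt
rbcL: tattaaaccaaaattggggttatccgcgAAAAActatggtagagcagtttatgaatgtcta
psbA: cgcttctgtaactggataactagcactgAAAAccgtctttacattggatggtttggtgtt
accD (window 57344 to 57412, plus strand) has a run of 13 and rpoA (78067 to 78136, minus strand) a run of 14, against 5 in rbcL (55476 to 55536, plus strand) and 4 in psbA (1340 to 1399, minus strand). atpB, the third by mean share, holds a run of 10. Across the 65 loci Spearman's rho of run length with level per kb was -0.25. GC content of the same coding sequences ranged from 28.7% to 45.1%, and its rho with level per kb was 0.50. Both are descriptions across genes of the same libraries, with levels per length that share a depth and a genome.

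Col-0 replicate 1 stood apart from the other 11 libraries and is set out here because it enters every comparison with the wild type. psbA had 45.5 CPM there, against 1732 and 1363 CPM in Col-0 replicates 2 and 3. rbcL had 152 CPM in replicate 1, against 4072 and 3205 CPM in the other two. Of the 6 ATP synthase transcripts, atpB and atpE went the opposite way: atpB had 518 CPM in replicate 1 and 141 and 122 CPM in replicates 2 and 3, and atpE 579 CPM against 113 and 69.5 CPM. On a log2 scale with 0.5 CPM added, replicate 1 minus the mean of replicates 2 and 3 came to -5.06 for psbA, -4.56 for rbcL, -3.93 for psaA, -3.69 for psbE and -3.69 for psaB. The same difference was 1.98 for atpB, 2.70 for atpE, 1.81 for trnS (ATCG00090), 1.41 for rpl32 and 1.29 for rpl22. Photosystem II transcripts had a median of -2.43 (14 loci) and ribosomal protein transcripts a median of 0.69 (16 loci). The ATP synthase median was -1.53 (6 loci), since atpH at -2.17, atpA at -1.98, atpF at -1.62 and atpI at -1.43 lay on the side of psbA and rbcL. The NDH complex transcripts had a median of -0.26 (9 loci). rbcL and psbA together made up 8.27% of the chloroplast counts of this library and 41.9% to 72.0% of those of the other 11. atpB and atpE made up 45.8% of them, against 2.43% to 10.1%. This library was also the deepest, with 29456111 counted reads, and had the lowest chloroplast share. Clock genes differed as well. LHY had 48.0 CPM in replicate 1, against 7.43 and 7.22 CPM in Col-0 replicates 2 and 3. PRR5, another clock gene, had 4.13 CPM there, against 35.9 and 33.3 CPM. The parts of depth and of clock phase were not tested.

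**Figure D1:**
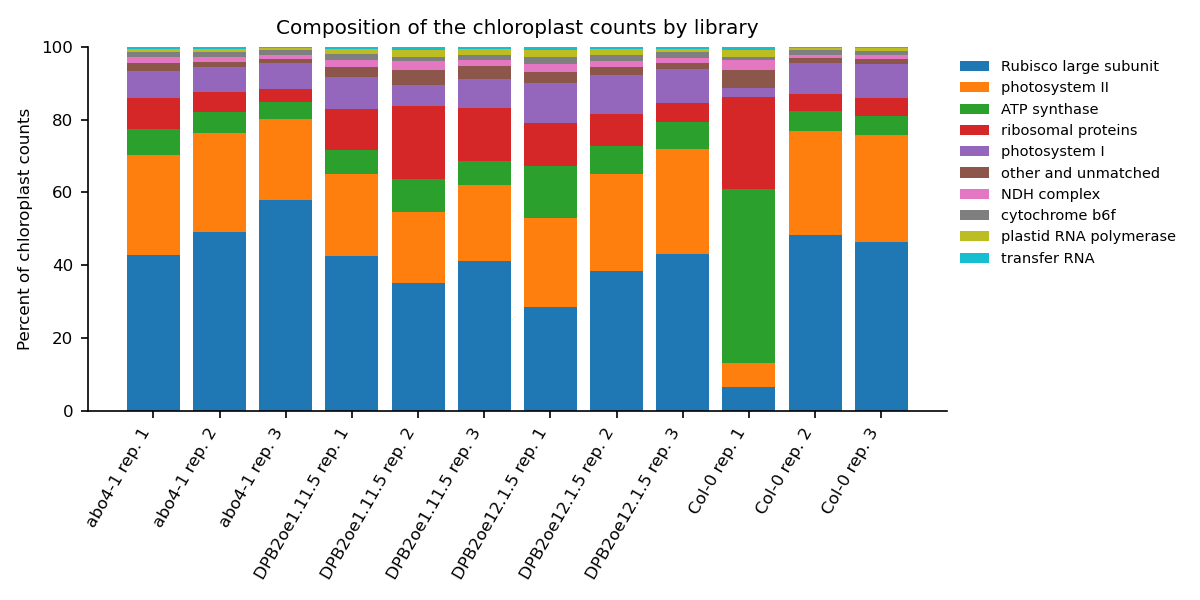
Composition of the chloroplast counts (percent, stacked by gene class) in each of the 12 libraries. Col-0 replicate 1 has 6.37% rbcL and 47.7% ATP synthase transcripts, while the other 11 libraries have 28.4% to 57.8% and 4.59% to 14.1%.

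Outside that library rbcL was the largest class in each library, while the order of the smaller classes varied. rbcL made up 28.4% to 57.8% of the chloroplast counts in the other 11 libraries, photosystem II 19.3% to 29.4%, photosystem I 5.86% to 11.1%, the ATP synthase 4.59% to 14.1% and ribosomal proteins 3.59% to 20.01%. The NDH complex took 0.961% to 2.44%, the cytochrome b6f complex 1.10% to 1.93%, the plastid RNA polymerase 0.594% to 2.13% and transfer RNAs 0.211% to 0.961%. In DPB2oe1.11.5, ribosomal protein transcripts took 11.4%, 20.01% and 14.5%, against 8.49%, 5.67% and 3.59% in abo4-1 and 25.3%, 4.95% and 5.19% in Col-0. The DPB2oe1.11.5 values lay above all abo4-1 values and between the Col-0 values. A second library with a tilt towards the ATP synthase was DPB2oe12.1.5 replicate 1, at 14.1% against 7.92% and 7.52% in its 2 sister libraries.

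The genes transcribed mainly by the plastid-encoded polymerase (psa, psb, pet and rbcL) were summed as a class. They made up 79.0%, 84.5% and 88.8% of the chloroplast counts in abo4-1, 75.3%, 61.4% and 71.3% in DPB2oe1.11.5, and for DPB2oe12.1.5 they were 66.1%, 77.3% and 82.8%, against 16.6%, 86.6% and 86.1% in Col-0. Means were 84.1 ± 4.92%, 69.3 ± 7.13% and 75.4 ± 8.50% in the 3 mutant lines and 63.1 ± 40.3% in Col-0 (SD, n = 3 each). Two-sided exact permutation tests against Col-0 gave p = 0.7 for abo4-1, 1 for DPB2oe1.11.5 and 1 for DPB2oe12.1.5, where 3 against 3 libraries cannot go below 0.1. Each mutant's mean was above that of Col-0 only through Col-0 replicate 1. Without that replicate the difference was -2.25 percentage points for abo4-1, -17.0 for DPB2oe1.11.5 and -10.9 for DPB2oe12.1.5. Between mutants, the class was 14.8 percentage points lower in DPB2oe1.11.5 than in abo4-1, with no overlap of libraries (exact permutation p = 0.1, the smallest possible).

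DPB2oe12.1.5 had the highest share of chloroplast reads. Chloroplast loci took 1.51%, 0.811% and 1.18% of the counted reads in DPB2oe12.1.5. Shares were 0.252%, 0.536% and 0.703% in abo4-1 and 0.705%, 0.233% and 0.649% in DPB2oe1.11.5, against 0.225%, 0.791% and 0.650% in Col-0. All 3 DPB2oe12.1.5 libraries lay above the other 9, whereas abo4-1, DPB2oe1.11.5 and Col-0 overlapped and each held 1 library under 0.3%. Counting error is small beside this: the 95% Wilson interval was 1.51% to 1.52% in DPB2oe12.1.5 replicate 1 and 0.223% to 0.226% in Col-0 replicate 1, and such intervals cover counting error only. The mean was 1.17 ± 0.351% in DPB2oe12.1.5 and 0.555 ± 0.295% in Col-0 (SD, n = 3 each), a ratio of 2.11 (two-sided exact permutation p = 0.1, the smallest that 3 against 3 libraries allow). abo4-1 averaged 0.497 ± 0.228% and DPB2oe1.11.5 0.529 ± 0.258%, and neither differed from Col-0 beyond the spread (exact permutation p = 0.8 and 0.9). DPB2oe12.1.5 was also 2.35 times abo4-1 and 2.21 times DPB2oe1.11.5, with p = 0.1 in each exact permutation test. Leaving out Col-0 replicate 1 left a difference of 0.448 percentage points between DPB2oe12.1.5 and Col-0, in place of 0.614.

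**Figure D2:**
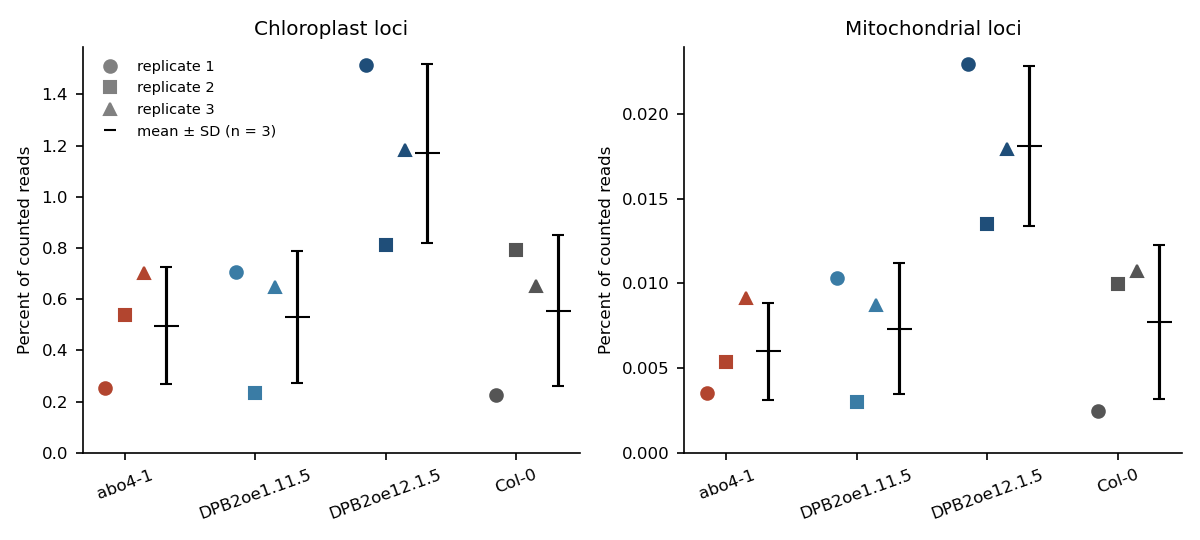
Share of counted reads on chloroplast loci (left) and mitochondrial loci (right) by genotype, 1 symbol per library with mean ± SD of 3 libraries. The 3 DPB2oe12.1.5 libraries, at 0.811% to 1.51% chloroplast reads, lie above all other libraries in both panels.

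The mitochondrial share was highest in the same line. The 146 mitochondrial loci took 0.0229%, 0.0135% and 0.0180% of the counted reads in DPB2oe12.1.5, against 0.00246%, 0.00994% and 0.0107% in Col-0. The abo4-1 libraries had 0.00350%, 0.00533% and 0.00913%, and the DPB2oe1.11.5 libraries 0.0103%, 0.00297% and 0.00872%. Reads with several equally good alignments were removed here too, so these shares cover the remaining reads only. How much of the mitochondrial genome stayed countable was not tested. Over the 12 libraries the log2 shares of the organelles had a Pearson r of 0.982 (permutation p = 1e-05, the smallest that 100000 permutations give) and a Spearman rho of 0.951 (permutation p = 2e-05). r was 0.964 without Col-0 replicate 1 and DPB2oe1.11.5 replicate 2, the libraries farthest from the median, and 0.970 over the 9 libraries outside DPB2oe12.1.5. This was the only relation of its kind computed, and both shares have the same denominator. There were 83.2 ± 15.3 chloroplast counts per mitochondrial count in abo4-1, 73.7 ± 5.06 in DPB2oe1.11.5 and, for DPB2oe12.1.5, 64.0 ± 3.36, against 77.1 ± 15.4 in Col-0 (SD, n = 3 each). Mitochondrial loci were tested if they passed a low-count filter, which the libraries of a single genotype could meet. Of the 32 tested against Col-0 in DPB2oe12.1.5, 32 had a positive log2 fold change with a median of 1.08. edgeR called 0, where it called 0.427% of all loci. At an unadjusted p under 0.05 there were 8, where 16.7% of all loci passed, and DESeq2 called 1, where it called 3.56% of all loci.

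Locus by locus, chloroplast transcripts were higher in DPB2oe12.1.5 than in Col-0, and 6 of the 80 tested passed. Across all 19924 loci tested, 0.427% were called in either direction and 0.201% were called higher, so the 7.5% of chloroplast loci called stood well over the share of all loci. The log2 fold change was positive for 79 of the 80, with a median of 1.58 against -0.00 for all loci tested. A locus could pass the low-count filter through the libraries of a single genotype. Without that filter 92 of 99 loci were positive, with a median of 1.51. Of the 80, 58 (57 of them higher) had an unadjusted p under 0.05, where 16.7% of all loci did. For 54 of the 80, all 3 DPB2oe12.1.5 libraries lay above all 3 Col-0 libraries, where 11.4% of all loci did so. The loci share these libraries, precursors and the higher chloroplast share, and are not independent of each other. Among the 80, trnD (ATCG00230, an aspartate transfer RNA) was the exception in sign. It had 0.321, 0.679 and 0.468 CPM in DPB2oe12.1.5, against 1.34, 1.66 and 1.17 CPM in Col-0 (log2 fold change -1.46, edgeR adjusted p = 0.266).

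The 6 called loci came from different functions and had moderate levels. accD (ATCG00500, 57075 to 58541, plus strand) encodes a subunit of the acetyl-CoA carboxylase that starts fatty acid synthesis. It had 24.2, 10.1 and 17.5 CPM in DPB2oe12.1.5, against 2.90, 3.13 and 2.65 CPM in Col-0, so that the lowest overexpressor library exceeded the highest wild-type one. Its log2 fold change was 2.58 ± 0.38 (SE; edgeR quasi-likelihood test with Benjamini-Hochberg adjustment, adjusted p = 0.0141).

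rpl33 (ATCG00640, 67488 to 67688, plus strand), a protein of the large ribosomal subunit, had 6.10, 4.14 and 3.97 CPM in DPB2oe12.1.5, against 1.05, 1.47 and 0.743 CPM in Col-0. It rose by 2.16 ± 0.35 on the log2 scale (edgeR adjusted p = 0.0196) and rested on 363 counts over all 12 libraries. trnL (ATCG00400, 46894 to 47490 with 1 intron), a leucine transfer RNA, had 26.2, 17.0 and 17.0 CPM in DPB2oe12.1.5, against 8.40, 5.77 and 5.57 CPM in Col-0. Its log2 fold change was 1.59 ± 0.26 (edgeR adjusted p = 0.0196). Neither locus had overlapping groups.

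psaC (ATCG01060, 117318 to 117563, minus strand) encodes the iron-sulphur protein on the acceptor side of photosystem I. It had 24.8, 10.3 and 13.3 CPM in DPB2oe12.1.5, against 2.72, 3.42 and 4.30 CPM in Col-0 (log2 fold change 2.22 ± 0.38, edgeR adjusted p = 0.0291). ndhI (ATCG01090, 119244 to 119762, minus strand), a subunit of the NDH complex of cyclic electron flow, had 16.4, 7.33 and 7.87 CPM in DPB2oe12.1.5, against 1.30, 2.74 and 2.76 CPM in Col-0 (2.25 ± 0.43, edgeR adjusted p = 0.0496). Both lie on the minus strand of the same stretch of the genome, and in both replicate 1 was the highest of the DPB2oe12.1.5 libraries. clpP (ATCG00670, 69910 to 71882, minus strand, 3 exons), the proteolytic subunit of the plastid Clp protease, had 37.0, 21.5 and 28.4 CPM in DPB2oe12.1.5, against 7.86, 11.7 and 9.55 CPM in Col-0 (1.59 ± 0.29, edgeR adjusted p = 0.0342).

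**Figure D3:**
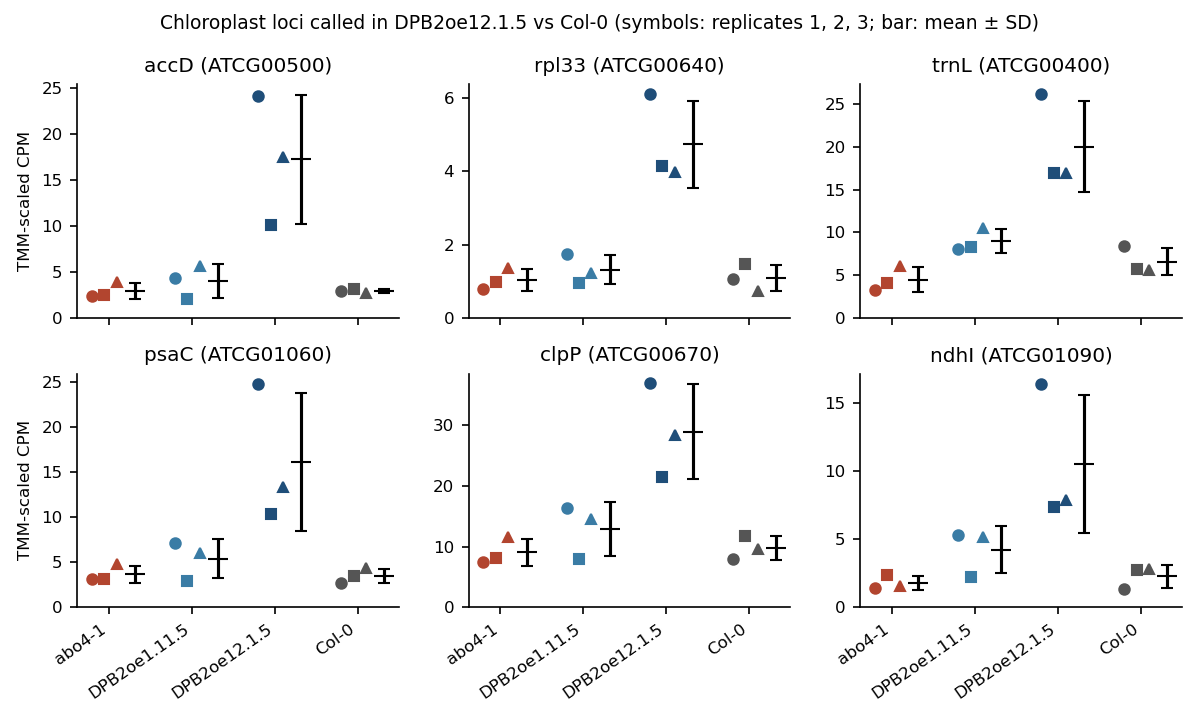
TMM-scaled CPM of the 6 chloroplast loci called in DPB2oe12.1.5 against Col-0, 1 symbol per library with mean ± SD of 3 libraries. In each panel the DPB2oe12.1.5 libraries lie above the Col-0 libraries, with replicate 1 highest; for accD they lie at 10.1 to 24.2 CPM, against 2.65 to 3.13 CPM.

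The count of 6 did not hold when single libraries were left out. It was 2, 1 and 0 without Col-0 replicates 1, 2 and 3, and 0, 2 and 5 without DPB2oe12.1.5 replicates 1, 2 and 3. The share of all loci called in those fits is not given, so the counts show only how the number of calls moved. The median log2 fold change of the tested loci stayed between 1.29 and 1.84. DESeq2 called 44 of the 80, all higher, where it called 3.56% of all loci. Without the 4 libraries of high LHY, which leaves 1 DPB2oe12.1.5 library, the median was 1.49. LHY still differed among the libraries kept. It had 40.0 CPM in DPB2oe12.1.5 replicate 3 and 48.0 CPM in Col-0 replicate 1, against 7.43 and 7.22 CPM in Col-0 replicates 2 and 3. Genotype and clock phase therefore stayed mixed.

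The abundant transcripts did not pass in DPB2oe12.1.5. psbA had 2014, 1271 and 2528 CPM in DPB2oe12.1.5, against 45.5, 1732 and 1363 CPM in Col-0 (log2 fold change 0.89, edgeR adjusted p = 0.651), and the groups overlapped. rbcL had 4207, 2971 and 5567 CPM in DPB2oe12.1.5, against 152, 4072 and 3205 CPM in Col-0 (0.78, edgeR adjusted p = 0.698). Without Col-0 replicate 1 these log2 fold changes were 0.33 and 0.23. atpB had 957, 207 and 313 CPM in DPB2oe12.1.5, against 518, 141 and 122 CPM in Col-0 (0.92, edgeR adjusted p = 0.506). atpE had 543, 102 and 150 CPM in DPB2oe12.1.5, against 579, 113 and 69.5 CPM in Col-0 (0.06, edgeR adjusted p = 0.977), and turned to -1.01 without DPB2oe12.1.5 replicate 1 and to 1.54 without Col-0 replicate 1. rbcL, psbA, atpB and atpE thus depended on single libraries, and none passed under any setting tried.

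**Figure D4:**
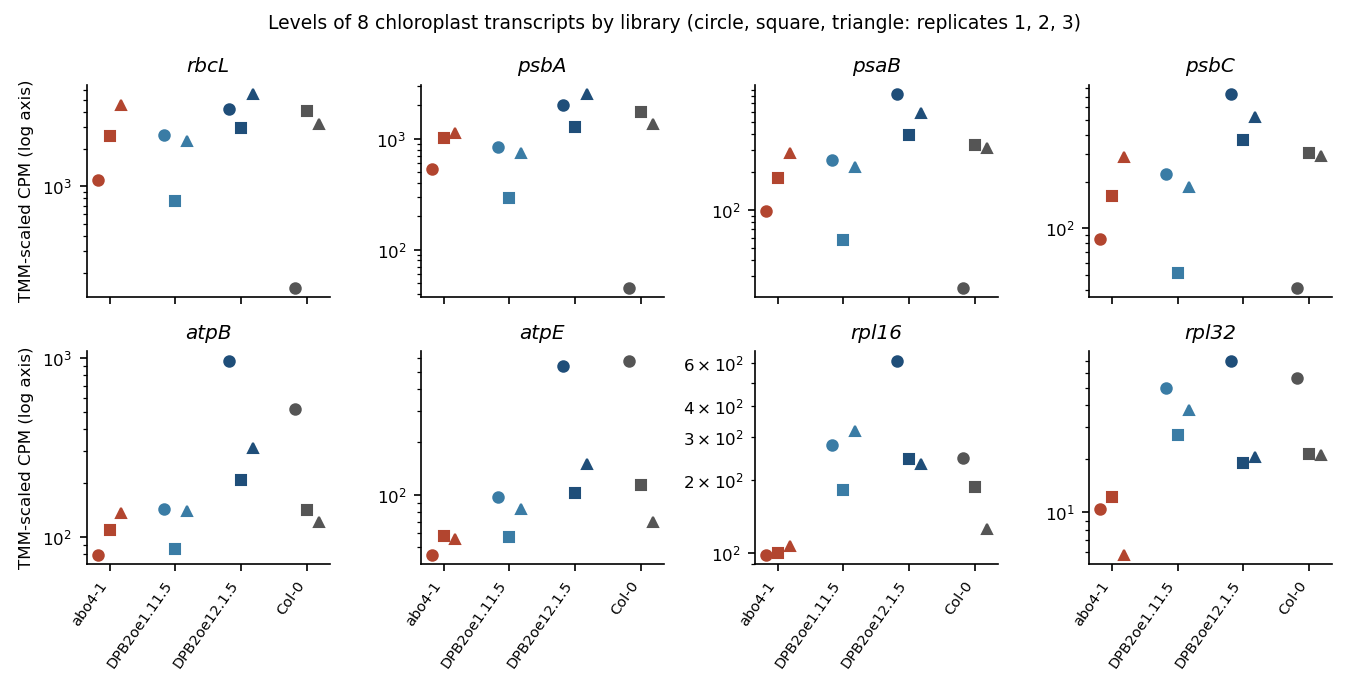
TMM-scaled CPM (log axis) of 8 chloroplast transcripts in the 12 libraries, by genotype. Col-0 replicate 1 (circle) is the lowest library for rbcL, psbA, psaB and psbC, at 152, 45.5, 24.2 and 41.6 CPM, and is high for atpB, atpE and rpl32.

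By gene class, every class but the transfer RNAs had all its tested members at a positive log2 fold change in DPB2oe12.1.5 against Col-0. The NDH complex had the highest median, 2.12 over 9 loci, of which 1 was called. ndhA (51.2, 16.2 and 24.9 CPM in DPB2oe12.1.5, against 3.80, 7.33 and 7.16 CPM in Col-0) had a log2 fold change of 2.35 (adjusted p = 0.108). The 8 transfer RNAs tested had a median of 1.99, with 1 called. The cytochrome b6f complex had 1.92 over 4 loci and the plastid RNA polymerase 1.76 over 4, with 0 called in either. Of the polymerase genes, rpoC2 had 80.6, 28.1 and 28.8 CPM in DPB2oe12.1.5, against 5.76, 14.8 and 13.7 CPM in Col-0. The ATP synthase had a median of 1.69 (6 loci, 0 called), ribosomal proteins 1.496 (16 loci, 1 called), photosystem I 1.46 (5 loci, 1 called) and photosystem II 1.18 (14 loci, 0 called). Among photosystem genes, psaB had 828, 395 and 588 CPM in DPB2oe12.1.5, against 24.2, 329 and 307 CPM in Col-0, and psbC had 729, 368 and 516 CPM against 41.6, 307 and 292 CPM. In both, all 3 DPB2oe12.1.5 libraries exceeded all 3 of Col-0, and the log2 fold changes of 1.46 (adjusted p = 0.417) and 1.34 (adjusted p = 0.409) did not pass.

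**Figure D5:**
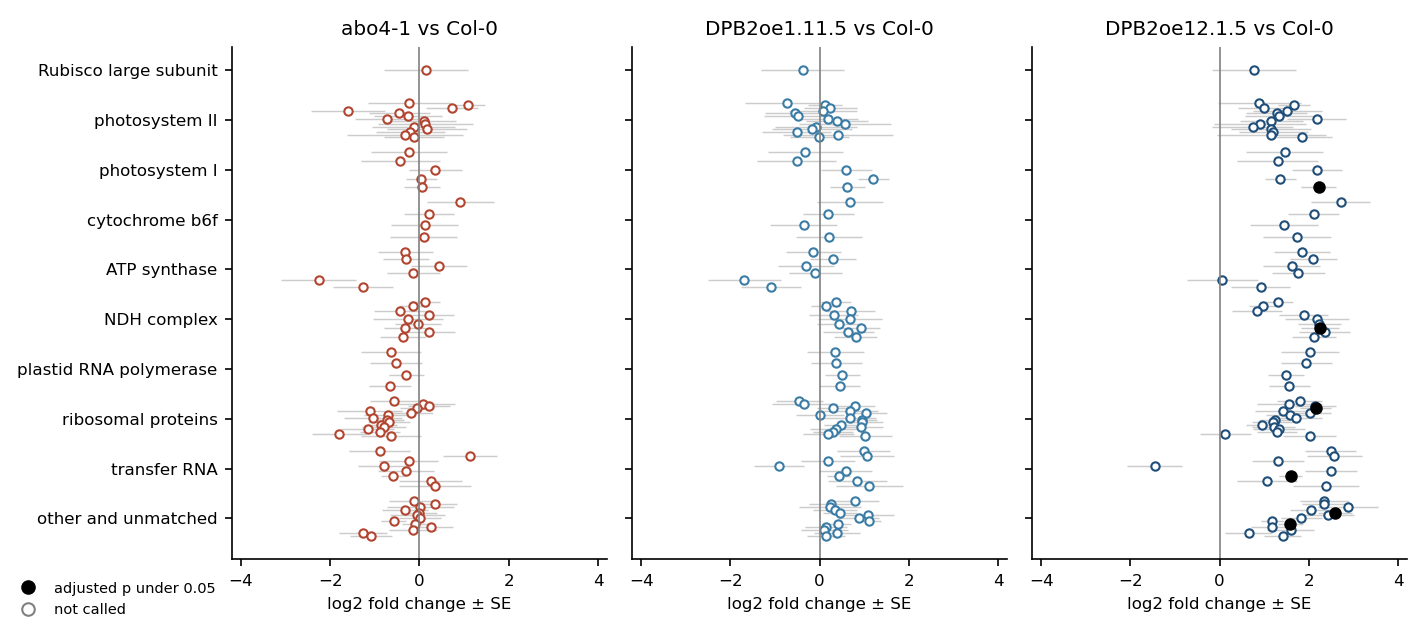
log2 fold change ± SE (edgeR) of the 80 tested chloroplast loci against Col-0, by gene class, for abo4-1, DPB2oe1.11.5 and DPB2oe12.1.5. Filled points have an adjusted p under 0.05, which 0, 0 and 6 loci reached; in DPB2oe12.1.5 only trnD lies left of 0. All 3 panels share the Col-0 libraries.

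In abo4-1, 0 of the 80 chloroplast loci were called against Col-0 by edgeR, where 0.783% of all loci tested were. DESeq2 also called 0, where it called 1.55% of all loci, and 7 loci had an unadjusted p under 0.05, of which 1 was higher, where 8.12% of all loci did. The median log2 fold change was -0.23 and 26 of 80 were positive. Ribosomal proteins had the lowest class median, -0.71 over 16 loci, 2 of them positive, and the plastid RNA polymerase had -0.58 over 4 loci, none positive. rpl16 had 98.5, 99.7 and 107 CPM in abo4-1, against 246, 187 and 126 CPM in Col-0, so that the groups did not overlap (log2 fold change -0.87, adjusted p = 0.596). rpl32 had 10.4, 12.2 and 5.80 CPM in abo4-1, against 56.8, 21.1 and 21.1 CPM in Col-0 (-1.80, adjusted p = 0.412). In all, 13 of the 80 lay with every abo4-1 library below every Col-0 library, where 6.38% of all loci did. psbA had 534, 1023 and 1119 CPM and rbcL 1129, 2550 and 4555 CPM in abo4-1. The psbA values lay within the range of Col-0, and the highest rbcL value lay above it.

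In DPB2oe1.11.5 edgeR also called 0 of the 80 against Col-0, where 0.708% of all loci were called. DESeq2 called 2 (ATCG00620 and psaJ), where it called 3.24% of all loci, and 4 loci had an unadjusted p under 0.05, where 14.9% of all loci did. The median log2 fold change was 0.36, with 61 of 80 positive. ATCG00620, one of the unnamed loci, 74 bases long, had 10.3, 6.13 and 9.39 CPM in DPB2oe1.11.5, against 4.67, 4.30 and 2.92 CPM in Col-0 (1.11, edgeR adjusted p = 0.0755). psaJ, a small photosystem I subunit, had 41.5, 17.95 and 23.6 CPM in DPB2oe1.11.5, against 14.8, 12.3 and 8.76 CPM in Col-0 (1.21, edgeR adjusted p = 0.130). These 2 loci were the ones whose DPB2oe1.11.5 libraries all lay above the Col-0 libraries, where 11.0% of all loci did. psbA had 841, 293 and 748 CPM and rbcL 2588, 768 and 2345 CPM in DPB2oe1.11.5, and replicate 2, one of the libraries with high LHY, was the lowest in both. Without the 4 libraries of high LHY, 7 loci were called here, and the share of all loci called in that setting is not given.

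In DPB2oe12.1.5 against abo4-1, 10 of the 80 were called, all higher, where 0.713% of all loci were called and 0.371% were called higher. They included trnK, trnL (ATCG00400), accD, ATCG00620, rpl33, clpP, psaC, ndhI and ATCG01230. trnK (ATCG00030, a lysine transfer RNA) had 9.80, 5.30 and 3.58 CPM in DPB2oe12.1.5, against 0.4998, 0.696 and 0.580 CPM in abo4-1 (3.38 ± 0.63, edgeR adjusted p = 0.0357). The groups did not overlap. The median over the 80 was 1.92, 60 had an unadjusted p under 0.05, where 14.9% of all loci did, and 68 lay with all DPB2oe12.1.5 libraries above all abo4-1 libraries, where 8.91% of all loci did. The count ran from 1 without abo4-1 replicate 1 to 10 over the libraries left out, with 3, 6 and 5 without DPB2oe12.1.5 replicate 1, abo4-1 replicate 2 and abo4-1 replicate 3, and DESeq2 called 50, where it called 3.24% of all loci. For the fits with libraries left out, the share of all loci called is not given. This comparison and the one with Col-0 share the DPB2oe12.1.5 libraries.

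In DPB2oe1.11.5 against abo4-1, 2 of the 80 were called, both higher, where 1.64% of all loci were called and 0.361% were called higher. ATCG00620 had 10.3, 6.13 and 9.39 CPM in DPB2oe1.11.5, against 2.22, 3.06 and 2.71 CPM in abo4-1 (1.69 ± 0.27, edgeR adjusted p = 0.00737). All 3 DPB2oe1.11.5 libraries lay above the abo4-1 libraries. With the replicate number as a block, which paired these groups by the correlation of their deviations, 3 were called: rpl32, at 49.9, 27.0 and 37.6 CPM in DPB2oe1.11.5 against 10.4, 12.2 and 5.80 CPM in abo4-1, was the one added (1.98, edgeR adjusted p = 0.0413). Ribosomal protein transcripts stood on opposite sides of Col-0 in these lines, with class medians of 0.58 in DPB2oe1.11.5 and -0.71 in abo4-1, and Col-0 replicate 1 is in both. At an unadjusted p under 0.05 there were 21 loci, where 16.4% of all loci passed, and DESeq2 called 11, where it called 4.63% of all loci. Leaving out single libraries gave 0 to 4 calls, with 1 in each case but 0 without abo4-1 replicate 1 and 4 without DPB2oe1.11.5 replicate 2. The share of all loci called is not given for those fits or for the block.

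The overexpressor lines differed from each other in share but in no single locus by edgeR. In DPB2oe12.1.5 against DPB2oe1.11.5, 0 of the 80 were called by edgeR, where 0.0301% of all loci were. Still 48 had an unadjusted p under 0.05, all higher, where 17.9% of all loci did, the median was 1.46, and DESeq2 called 22, where it called 3.36% of all loci. accD had 24.2, 10.1 and 17.5 CPM in DPB2oe12.1.5, against 4.32, 2.01 and 5.62 CPM in DPB2oe1.11.5 (2.12, edgeR adjusted p = 0.0600). rpl33 had 6.10, 4.14 and 3.97 CPM in DPB2oe12.1.5, against 1.74, 0.957 and 1.24 CPM in DPB2oe1.11.5 (1.85, edgeR adjusted p = 0.0607). Without DPB2oe1.11.5 replicate 2, accD, rpl33 and trnL (ATCG00400) were called, and without DPB2oe12.1.5 replicate 2, accD was. The share of all loci called in those fits is not given.

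The nuclear genes that transcribe the chloroplast genome did not pass in any of the 6 comparisons. The list held the sigma factors SIG1 to SIG6, which direct the plastid-encoded polymerase to promoters, the phage-type polymerases RPOTP and RPOTMP, and 12 polymerase-associated proteins. All 20 were tested, and edgeR and DESeq2 each called 0 in every comparison. Of all loci, edgeR called 0.0301% to 1.64% and DESeq2 1.55% to 4.63%, so few calls among 20 genes would be met at those shares. Median log2 fold changes against Col-0 were 0.05 in abo4-1, 0.31 for DPB2oe1.11.5 and 0.08 for DPB2oe12.1.5. In this order 0, 5 and 2 members had an unadjusted p under 0.05, where 8.12%, 14.9% and 16.7% of all loci did. In DPB2oe1.11.5 against Col-0, 18 of the 20 were positive, and 10 had all libraries above those of Col-0, where 11.0% of all loci did. In DPB2oe12.1.5 against DPB2oe1.11.5, 6 had an unadjusted p under 0.05, all lower, where 17.9% of all loci did. SIG5 (listed as SIGE by RefSeq), a light- and stress-responsive sigma factor known for psbD transcription, had 84.8, 93.8 and 59.5 CPM in DPB2oe12.1.5, against 40.3, 38.7 and 36.9 CPM in Col-0 (1.04, edgeR adjusted p = 0.416). It was also high in the other libraries of high LHY, at 101 CPM in abo4-1 replicate 2 and 102 CPM in DPB2oe1.11.5 replicate 2. SIG1 (SIGA) had 108, 110 and 92.6 CPM in DPB2oe12.1.5, against 83.8, 62.3 and 74.0 CPM in Col-0 (0.50, edgeR adjusted p = 0.194). RPOTP (SCA3) had 28.9, 26.0 and 13.4 CPM in DPB2oe12.1.5, against 23.7, 23.9 and 24.8 CPM in Col-0.

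Nuclear genes for photosynthesis had negative median log2 fold changes against Col-0 in all 3 lines. The 25 genes listed encode light-harvesting proteins and photosystem subunits, besides PETC of the cytochrome b6f complex and ATPC1 and ATPD of the ATP synthase. In DPB2oe12.1.5 against Col-0 the median was -0.44, and edgeR called 0, where it called 0.427% of all loci. The 3 positive members there were PETC (0.14), ATPC1 (0.16) and ATPD (0.21). At an unadjusted p under 0.05 there were 12, all lower, where 16.7% of all loci passed. DESeq2 called 3 lower, where it called 3.56% of all loci. In DPB2oe1.11.5 against Col-0 edgeR called 2, both lower, where it called 0.708% of all loci. DESeq2 called 9 lower, where it called 3.24% of all loci, and 13 had an unadjusted p under 0.05, where 14.9% of all loci did. PSAK, a photosystem I subunit, had 1481, 1414 and 1444 CPM in DPB2oe1.11.5, against 4193, 4355 and 3582 CPM in Col-0 (-1.48 ± 0.27, edgeR adjusted p = 0.0248). LHCB4.2, a minor antenna protein of photosystem II, had 3011, 2906 and 2967 CPM in DPB2oe1.11.5, against 6702, 6456 and 5602 CPM in Col-0 (-1.08 ± 0.21, edgeR adjusted p = 0.0369). In abo4-1 the list had a median of -0.14. edgeR and DESeq2 each called 0, where they called 0.783% and 1.55% of all loci. There, 2 genes had an unadjusted p under 0.05, where 8.12% of all loci did. In the comparisons between mutants edgeR called PSAK, lower in DPB2oe1.11.5 than in abo4-1 (-1.18 ± 0.27, adjusted p = 0.0432), and no other member, where it called 1.64% of all loci in that comparison. DESeq2 called 7 lower there, 1 lower in DPB2oe12.1.5 against abo4-1 and 0 in DPB2oe12.1.5 against DPB2oe1.11.5. It called 4.63%, 3.24% and 3.36% of all loci in these comparisons. Col-0 replicate 1, low in chloroplast rbcL and psbA, was not low in the nuclear list, whose sum was 128894 CPM there, against 140696 and 134969 CPM in Col-0 replicates 2 and 3.

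Among the 41 chloroplast loci of at least 10 CPM, psbB, psbC and petB followed the summed chloroplast level most closely over the 12 libraries, with a Pearson r of log2 CPM of 0.986, 0.984 and 0.982. These loci are part of that sum. The loosest were ycf1 (ATCG01130, a large protein of the envelope import machinery) at 0.255, atpE at 0.240 and rpl32 at 0.039. Of these, atpE and rpl32 were high in Col-0 replicate 1 and DPB2oe12.1.5 replicate 1, the libraries with the lowest and the highest chloroplast share. Of 10893 nuclear loci of at least 10 CPM, those most like the summed level were AT2G07717 (chromosome 2, 3418229 to 3426141, r = 0.957), AT2G01008 (chromosome 2, 1025 to 3173, r = 0.956) and AT2G07709 (chromosome 2, 3388547 to 3394716, r = 0.948). RefSeq lists AT2G07717 and AT2G07709 as transcribed pseudogenes and AT2G01008 as protein-coding. They are the top of a ranking over 12 libraries, given as a description.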

How the data were processed

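Stranded, single-end mRNA libraries from 12 seedling samples (Ion Torrent Proton) were used as deposited: raw counts per locus that the authors made, without scaling, with reads of several equally good hits removed per the file headers. The submitters' processing notes name TAIR10, with aligner and counter versions not given in the sources used here. The sum of the counts equalled mapped minus removed reads in all libraries. Of all reads, 90.3% to 95.6% mapped, and 2.09% to 3.01% of the mapped were removed. Only the read count column was analysed, with locus length for per-kb values.

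Counts of all loci were filtered (filterByExpr by genotype, minimum count 10), scaled by TMM and fitted in 1 edgeR 4.0.16 quasi-likelihood model (R 4.3.3, robust, a mean per genotype, 12 libraries), with 6 contrasts. p-values were adjusted by Benjamini-Hochberg over 19924 loci, and loci under 0.05 were called. SEs are the log2 fold change over the root of the F statistic. Code was tested on simulated data. Shares were compared by two-sided exact permutation tests (scipy 1.17.1). ATCG identifiers were matched to the RefSeq TAIR10.1 chloroplast by exact spliced length; 108 of 133 matched, and the 63 loci of unique length stood in genome order. Unnamed loci went into the class of other loci, and they held 9695 counts.

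Replicate numbers paired only DPB2oe1.11.5 and abo4-1: deviations from the group means correlated by 0.158, 0.595 and 0.399 in replicate order, each above 0.1, although no label names a shared batch. Alternatives were DESeq2 1.42.0, other scalings, no filter, 2 genotypes alone, the replicate block and leaving out libraries; leaving out the libraries of LHY above 100 CPM was added after seeing the data. The members and lists were chosen with earlier results of these data known. Named loci were fixed photosynthesis, polymerase and housekeeping loci, the 10 most abundant, all called loci and partner genes; rpl32, psaJ, trnD and other loci outside this rule were chosen after their values were seen. Not every called locus is reported here.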

Additional observations from a re-analysis of the deposited data

How the results depend on the processing

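The higher chloroplast share of DPB2oe12.1.5 against Col-0 kept its direction under every alternative run, at 0.430 to 0.793 percentage points, and the exact sign-flip test over same-numbered pairs (replicate block) gave p = 0.25, the smallest 3 pairs allow. The small differences of the other lines had no stable sign over the libraries left out: -0.224 to 0.0644 for abo4-1 and -0.192 to 0.121 for DPB2oe1.11.5, with 0.121 without the 4 libraries of LHY above 100 CPM. The plastid-polymerase class ranged from -2.25 to 32.7 percentage points in abo4-1, -17.0 to 17.96 in DPB2oe1.11.5 and -10.9 to 24.0 in DPB2oe12.1.5 when single libraries were left out, negative in each without Col-0 replicate 1, and was -3.45 in DPB2oe1.11.5 without rbcL.

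Counts of called chloroplast loci depended on the tool and libraries. Against Col-0 they were 1 in abo4-1 with the 2 genotypes alone and 1 without the high-LHY libraries, 0 over libraries left out. In DPB2oe1.11.5 they were 2 with DESeq2, 1 with no filter, 7 without the high-LHY libraries and 0 to 1 over libraries left out. DPB2oe12.1.5 had 44 with DESeq2, 10 with the 2 genotypes alone and 0 to 5 over libraries left out. Against abo4-1, DPB2oe1.11.5 had 11 with DESeq2, 16 without the high-LHY libraries and 0 to 4 over libraries left out. DPB2oe12.1.5 against abo4-1 had 50 with DESeq2, 6 with the 2 genotypes alone and 1 to 10 over libraries left out. DPB2oe12.1.5 against DPB2oe1.11.5 had 22 with DESeq2, 4 with no filter, 1 with the replicate block and 0 to 3 over libraries left out. The replicate block gave 6 for DPB2oe12.1.5 against Col-0, 3 for DPB2oe1.11.5 against abo4-1 and 13 for DPB2oe12.1.5 against abo4-1. The cause was not tested. For settings other than the main fit and DESeq2, the share of all loci called is not given here. Their counts show only how the number of calls moved. Among named loci no call changed direction. Loci of few counts, such as rpl33 with 363, limit what single libraries can show.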

Other observations

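In DPB2oe12.1.5 against abo4-1, 31 of the 32 tested mitochondrial loci had a positive log2 fold change, with a median of 1.48. edgeR called 0, where it called 0.713% of all loci, and DESeq2 called 1, where it called 3.24%. Of the 32, 14 had an unadjusted p under 0.05, where 14.9% of all loci did. In DPB2oe12.1.5 against DPB2oe1.11.5 all 32 were positive, with a median of 1.52. These 32 passed the low-count filter, which the libraries of a single genotype could meet. edgeR called 0, where it called 0.0301% of all loci, and DESeq2 called 4, where it called 3.36%. Of the 32, 18 had an unadjusted p under 0.05, where 17.9% of all loci did. In abo4-1 and DPB2oe1.11.5 against Col-0 the medians were -0.32 and -0.38, with 0 called by either tool. edgeR called 0.783% and 0.708% of all loci there, and DESeq2 1.55% and 3.24%. At an unadjusted p under 0.05 there were 0 and 3, where 8.12% and 14.9% of all loci passed.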
